A study of Arabidopsis thaliana with 16 samples.

Results

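The tau (GSTU) and phi (GSTF) glutathione transferases of Arabidopsis were followed through zeocin and UV-C exposure of whole seedlings. The members were the 41 genes named GSTU1 to GSTU28 and GSTF2 to GSTF14, 28 of the tau and 13 of the phi class, taken by gene identifier. The deposited tables together held 21714 annotated nuclear genes. All libraries came from wild-type Columbia (Col-0) plants, an inbred laboratory accession, cultured in vitro and 15 days old, with no transgene or mutant allele named. In the first experiment 5 mock libraries stood against 5 libraries of seedlings given zeocin, a bleomycin-type drug that breaks DNA, at 200 µg/ml for 3 h. In the second, 3 mock libraries of their own stood against 3 libraries of seedlings given 8 kJ/m2 of UV-C, short-wave light that links neighbouring pyrimidines in DNA. The time from UV-C exposure to harvest and the make-up of the mock treatments are not given in the sources used here. The series was designed to search for long non-coding RNAs of double-strand break repair, and the protein-coding genes described here were counted on the same assembled transcripts.

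Glutathione transferases join the tripeptide glutathione to reactive or foreign molecules, which marks the product for transport into the vacuole, and many also act as peroxidases or carry ligands. The tau and phi classes are the large plant-specific groups, and in Arabidopsis many of their genes lie side by side as copies. Some are known for rising with herbicide safeners, salicylic acid, wounding or oxidised lipids, and a few serve dedicated pathways such as those of camalexin, glucosinolates and anthocyanins.

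Total counts ranged from 31185080 to 44536500 per library in the zeocin experiment and from 27973871 to 37507136 in that of UV-C. Plastid loci took 30.59% to 37.26% of the zeocin experiment's counts, 44.2% to 46.78% of the UV-C mock counts and 36.98% to 40.55% after UV-C. Of 8 genes that mark root tissue, 6 fell after zeocin, beside 12.0% of all loci, and none passed as a rise (15.0% of all loci did). Their log2 fold changes ran from -2.815 to 2.504, so a marker that did not pass went up. The summed level of the 8 was 226 to 287 CPM (counts scaled to library size with TMM factors) in mock and 96.8 to 119 CPM in zeocin libraries. After UV-C 2 of the 8 fell, beside 30.9% of all loci. The root sums were then 44.3 to 72.8 CPM in mock and 28.2 to 49.9 CPM in treated libraries. No defining root marker was at 0 in a group mean. Of 7 markers of green tissue none passed the test after zeocin (27.0% of all loci did), while 3 rose and 4 fell after UV-C. Over all loci 33.6% rose and 30.9% fell after UV-C. The green sums were 20770 to 22700 CPM in mock and 15770 to 16510 CPM in UV-C libraries. Zeocin mock libraries stood apart from each other in some detoxification genes. DTX3, an efflux carrier, had 1.92, 103, 86.7, 63.7 and 8.81 CPM in mock replicates 1 to 5, and the pump gene ABCC3 had 39, 349, 354, 287 and 91.3 CPM, so replicates 2, 3 and 4 were high and 1 and 5 low. The part of these shifts in the values below was not tested. In whole seedlings fewer cells of a type and less RNA per cell cannot be told apart.

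A locus in the zeocin table held 37 of the 41 genes, 34 of them with no other gene. In that table GSTU15, GSTU21, GSTU28 and GSTF5 had no locus, GSTU1 and GSTU2 shared 1, and GSTF8 shared its locus with AT2G47720, a gene that overlaps it. Exons of GSTF8 made up 99.6% of that locus. GSTF12 lay below the filter on low counts, which left 33 genes tested alone. The UV-C table held 36 genes, 34 alone, and GSTU14, GSTU15, GSTU28, GSTF5 and GSTF13 had none. GSTU1 and GSTU2 shared a locus there too, and GSTU21, GSTU23 and GSTF12 lay below the filter, which left 31 genes. Hence GSTU15, GSTU28 and GSTF5 had no value in either experiment.

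More counts fell on phi than on tau loci in mock seedlings. Over all measured loci, with no correction for length, phi genes summed to 1382 to 2299 CPM and tau genes to 284 to 373 CPM in the zeocin mock libraries, and to 862 to 994 and 433 to 483 CPM in the UV-C mock libraries. The phi sum of the zeocin mock libraries includes the locus that GSTF8 shares with AT2G47720, which made up 22.7% of it. Single genes are ranked per kilobase of locus. GSTF2 (AT4G02520), which binds indolic ligands such as camalexin, headed the zeocin mock libraries at 1060 ± 326 CPM per kb (SD, n = 5), but its assembled locus covered only 26.2% of the gene. GSTF9 (AT2G30860) followed at 439 ± 56.9 and GSTF10 (AT2G30870), its neighbour, at 268 ± 36.4 CPM per kb. In the UV-C mock libraries GSTF9 (411 ± 20.6 CPM per kb, n = 3), GSTU19 (AT1G78380, 202 ± 4.01) and GSTF10 (184 ± 16.4) were highest. The spreads of GSTU19 and GSTF10 overlapped. The lowest tested genes in mock were GSTU3, GSTU12 and GSTU11, with 0.281, 0.555 and 0.665 CPM per kb in the zeocin experiment and 0.00961, 0.0699 and 0.105 in that of UV-C. The experiments were assembled and counted separately, so these levels are not compared between them.

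**Figure D1:**
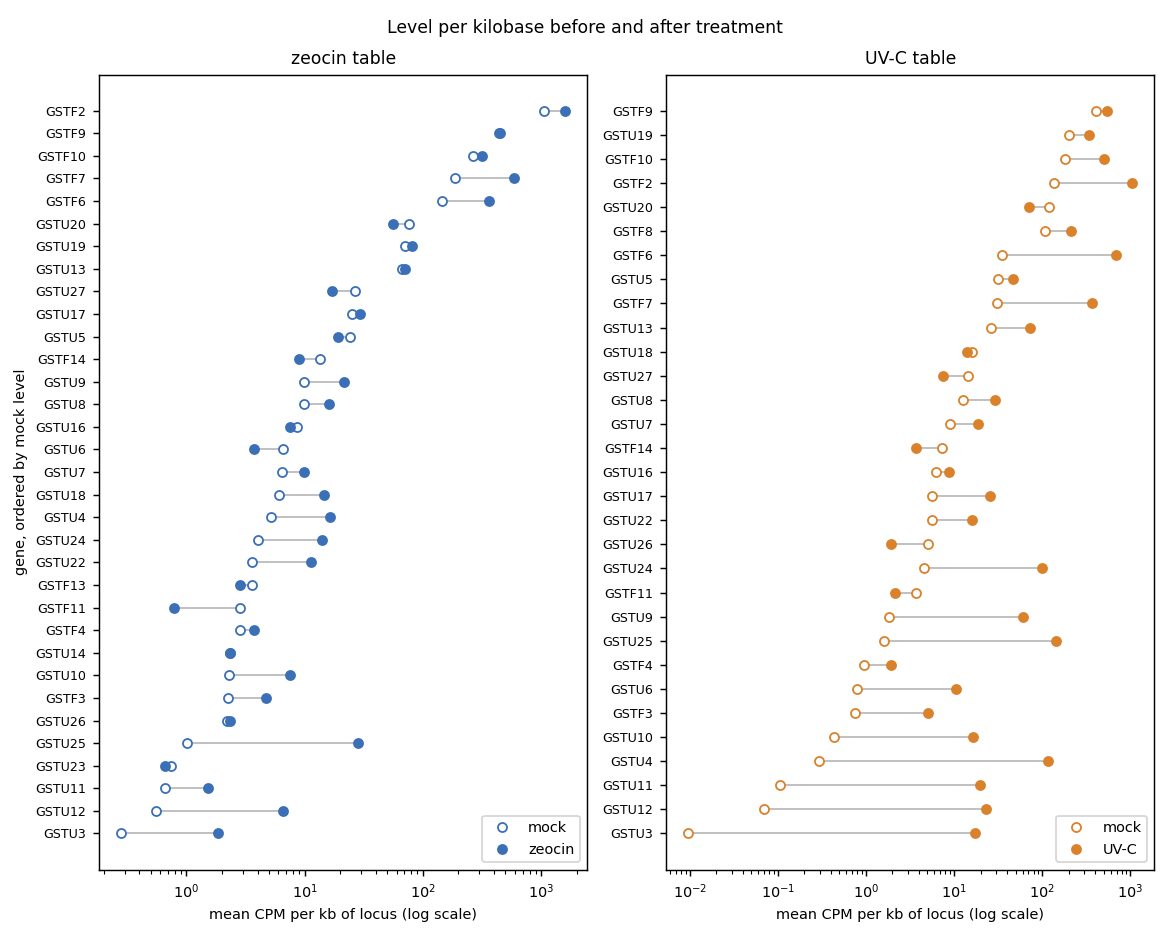
Mean level of each gene tested alone, as CPM per kb of its locus on a log axis, in mock (open) and treated (filled) libraries of the zeocin table (left, n = 5 a group) and the UV-C table (right, n = 3 a group), joined by a grey line and ordered by mock level. GSTU12 has a long line in both panels, and that of GSTF9 is short after zeocin.

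After zeocin a set of tau genes rose, led by GSTU25 and GSTU12, and a few genes fell, GSTF11 the furthest. Of 33 genes tested alone, 14 rose, 5 fell and 14 did not pass the test (edgeR's quasi-likelihood test, Benjamini-Hochberg adjusted p below 0.05), where over all 19447 loci 27.0% were called, 15.0% as rises and 12.0% as falls. Rises were thus 55.6% of the calls over all loci, a share that became 44.9% when libraries were scaled by upper quartiles. Rises of at least 1 on the log2 scale came to 12 of the 33, beside 5.16% of all loci, and the fall of GSTF11 was the only one of that size, beside 2.09%. In the tau class 11 of 23 rose and 3 fell, with a median log2 fold change of 0.60, and in the phi class 3 of 10 rose and 2 fell, with a median of 0.31. Over all loci the median was -0.02. In 11 genes every zeocin library lay above every mock library, and in 2 every one lay below. The like share over all loci is not given here, so these counts describe single genes and no trait of the family. The 5 falls became 3 without zeocin mock replicate 4 or 5 or zeocin replicate 2 or 3.

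GSTU25 (AT1G17180, TAIR10.1 chromosome 1, 5872024 to 5873124, plus strand), which with GSTU24 is known to conjugate the explosive TNT, rose the most after zeocin. It stood at 0.574, 1.07, 1.38, 0.731 and 0.923 CPM in mock libraries 1 to 5 and at 16, 34.6, 28.3, 27.7 and 22.5 CPM in zeocin libraries 1 to 5. The groups were far apart, and the log2 fold change was 4.78 ± 0.26 (SE, adjusted p = 3.57e-08). GSTU24 (AT1G17170), the gene just before it on chromosome 1, stood at 1.95, 3.92, 4.7, 4.79 and 2.63 CPM in mock and at 9.28, 13.7, 14.6, 11.1 and 14.4 CPM after zeocin. Its groups did not overlap either, and it rose by 1.81 ± 0.23 (adjusted p = 7.71e-05).

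GSTU12 (AT1G69920, chromosome 1, 26334250 to 26335630, minus strand) went from 0.287, 0.948, 0.394, 0.542 and 0.346 CPM to 4.39, 8.34, 6.02, 4.96 and 6.36 CPM. All zeocin libraries of GSTU12 exceeded all mock ones, and the rise was 3.60 ± 0.29 (adjusted p = 3.17e-07). GSTU3 (AT2G29470) went from 0.0287, 0.411, 0.222, 0.212 and 0.254 CPM to 0.491, 1.75, 1.3, 0.76 and 3.09 CPM, a rise of 2.72 ± 0.55 (adjusted p = 0.00217). Its groups did not overlap, but the libraries of each differed severalfold, and mock replicate 1 held 1 read. GSTU3 passed the filter on low counts through its zeocin libraries, so genes as scarce in mock that did not rise were not tested beside it. GSTU10 (AT1G74590) stood at 0.746, 0.916, 0.468, 0.613 and 1.92 CPM in mock and at 2.6, 3.64, 3.25, 2.48 and 3.49 CPM after zeocin (1.72 ± 0.32, adjusted p = 9.50e-04). Its locus covered 35.5% of the gene, and mock replicate 5 was the highest of its group while still under every zeocin library. GSTU22 (AT1G78340) rose from 2.47, 3.54, 3.45, 2.92 and 3.12 CPM to 9.45, 9.41, 11, 11 and 7.62 CPM (1.65 ± 0.14, adjusted p = 6.58e-07), with a narrow spread in each group.

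The promoters of GSTU25 and GSTU12, with the largest rises after zeocin, and of GSTU3 and GSTU4, with the largest after UV-C, are shown because the results turn on these rises. Each is the 300 bases before the annotated start of the gene in the RefSeq annotation of TAIR10.1, 5′ to 3′ on the gene's strand. Capitals mark TGACG, the core of the as-1 element that TGA factors bind, and TTGAC, the core of the W-box that WRKY factors bind, on either strand (CGTCA and GTCAA on the other). They lie at chr1:5871724-5872023 (plus strand), chr1:26335631-26335930 (minus), chr2:12629641-12629940 (minus) and chr2:12627892-12628191 (minus) in the order given.
GSTU25: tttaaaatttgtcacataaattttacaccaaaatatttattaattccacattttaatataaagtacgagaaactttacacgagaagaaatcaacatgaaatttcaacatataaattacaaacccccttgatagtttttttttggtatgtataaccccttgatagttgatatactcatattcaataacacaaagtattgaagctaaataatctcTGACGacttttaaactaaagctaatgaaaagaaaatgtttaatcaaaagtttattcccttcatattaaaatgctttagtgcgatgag
GSTU12: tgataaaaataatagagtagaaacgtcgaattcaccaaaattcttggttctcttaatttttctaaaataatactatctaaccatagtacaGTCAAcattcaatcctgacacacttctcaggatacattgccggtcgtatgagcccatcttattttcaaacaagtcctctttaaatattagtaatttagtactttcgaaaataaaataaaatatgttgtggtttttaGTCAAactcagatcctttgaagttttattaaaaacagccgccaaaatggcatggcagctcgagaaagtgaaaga
GSTU3: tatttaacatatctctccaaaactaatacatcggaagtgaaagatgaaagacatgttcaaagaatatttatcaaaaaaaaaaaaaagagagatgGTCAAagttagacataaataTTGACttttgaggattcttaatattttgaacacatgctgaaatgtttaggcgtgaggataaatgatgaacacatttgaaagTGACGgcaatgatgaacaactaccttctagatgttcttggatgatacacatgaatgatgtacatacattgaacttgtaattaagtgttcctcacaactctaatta
GSTU4: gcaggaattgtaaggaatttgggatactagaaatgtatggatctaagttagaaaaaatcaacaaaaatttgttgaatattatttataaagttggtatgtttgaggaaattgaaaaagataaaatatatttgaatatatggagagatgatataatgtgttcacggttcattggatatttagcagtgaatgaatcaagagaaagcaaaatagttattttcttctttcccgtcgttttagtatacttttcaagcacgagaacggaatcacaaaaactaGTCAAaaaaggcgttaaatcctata

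In these windows GSTU25 held 1 TGACG, whose first base lay 87 bases before the start, and no TTGAC. GSTU12 held 2 TTGAC and no TGACG, GSTU3 held 1 TGACG and 2 TTGAC, and GSTU4 held 1 TTGAC. Over all 41 genes TGACG was present in 17 windows (41.5%, 13 tau and 4 phi) and TTGAC in 26 (63.4%, 18 tau and 8 phi). Of 27443 windows of the same length at annotated genes, 21.3% held TGACG and 50.4% TTGAC. At least 2 matches were found in 4 of the 41 windows for TGACG (9.8%, against 4.0% of all windows) and in 10 for TTGAC (24.4%, against 17.9%). In GSTU5 and GSTU8 the motifs overlap as TTGACG, so that the same bases count for each. Among the 14 genes that rose after zeocin 8 held TGACG and 12 held TTGAC, and among the 14 tested alone that did not pass the test 4 and 8 did. Of the 5 that fell after zeocin 2 held TGACG and 2 held TTGAC. Among the 25 that rose after UV-C the numbers were 13 and 19, among the 4 that fell 2 and 2, and among the 2 not called 0 and 1. Tandem copies share ancestry, so the windows are not independent, and a match describes the letters only.

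Of the remaining tau genes GSTU4 (1.64 ± 0.34), GSTU18 (1.26 ± 0.17), GSTU9 (1.11 ± 0.32), GSTU8 (0.70 ± 0.16) and GSTU7 (0.60 ± 0.12) rose after zeocin. The groups of GSTU4, GSTU18 and GSTU7 did not overlap, whereas those of GSTU8 and GSTU9 did. The call of GSTU9 (adjusted p = 0.0289) was lost without any of mock replicates 4 and 5 or zeocin replicates 2, 3 and 4 (0.0506 to 0.0668). GSTU27 fell by 0.65 ± 0.08 on the log2 scale, with mock libraries at 17.3 to 19.1 CPM and zeocin libraries at 10.6 to 12.8. GSTU20, which binds the jasmonate-conjugating enzyme JAR1 (FIN219) and is grouped with glucosinolate synthesis, fell by 0.47 ± 0.12, with overlapping groups. GSTU6 fell by 0.81 ± 0.28 (adjusted p = 0.0460), a call that was lost without any one library except mock replicate 1 and zeocin replicate 5 (0.0508 to 0.111). The shared locus of GSTU1 and GSTU2 rose by 1.03 ± 0.13 (adjusted p = 4.47e-05).

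Not passing the test after zeocin were GSTU5, GSTU11, GSTU13, GSTU14, GSTU16, GSTU17, GSTU19, GSTU23 and GSTU26. GSTU19 had a log2 fold change of 0.19 ± 0.12, and GSTU13, which takes part in the indole glucosinolate branch of defence, had 0.09 ± 0.07. GSTU11 had 1.18 ± 0.59 (adjusted p = 0.166), and without mock replicate 3, its highest mock library, 1.87 (adjusted p = 0.0255). GSTU5, an auxin-inducible member, had -0.33 ± 0.13 and was called as a fall without mock replicate 1 or 2 or zeocin replicate 1 (adjusted p = 0.0165 to 0.0427) and with upper quartile factors (adjusted p = 0.0391).

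Among phi genes the neighbours GSTF6 and GSTF7 rose after zeocin. GSTF7 (AT1G02920) stood at 81.5, 146, 183, 167 and 194 CPM in mock and at 271, 648, 613, 378 and 533 CPM after zeocin, a rise of 1.66 ± 0.29 (adjusted p = 0.00182). GSTF6 (AT1G02930), which couples glutathione to an indole nitrile on the way to camalexin, stood at 84, 140, 192, 197 and 165 CPM and then at 205, 452, 520, 308 and 430 CPM (1.3 ± 0.29, adjusted p = 0.00793). In each gene replicate 1 was lowest in both groups, and no zeocin library fell to the mock range. GSTF3 rose by 1.10 ± 0.37 (adjusted p = 0.0480), a call lost without mock replicates 1, 3 or 5 or zeocin replicates 1, 2, 4 or 5 (0.0590 to 0.112), with upper quartile factors (0.0548) and without a filter (0.0514). The locus that GSTF8, whose promoter is widely used as a stress reporter, shares with AT2G47720 rose by 0.51 ± 0.17 (adjusted p = 0.0387).

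GSTF11 (AT3G03190, chromosome 3, 734892 to 735987, plus strand), grouped with the synthesis of aliphatic glucosinolates, fell the most. Its mock libraries held 1.29, 2.31, 2.91, 2.05 and 2.84 CPM and its zeocin libraries 0.809, 0.467, 0.514, 0.727 and 0.603 CPM, a log2 fold change of -1.88 ± 0.27 (adjusted p = 1.26e-04). Every zeocin library lay below every mock library. GSTF14 fell by 0.59 ± 0.18 (adjusted p = 0.0239), a call lost without mock replicate 4 or 5 or zeocin replicate 2, 3 or 5 (0.0521 to 0.0669).

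The abundant phi genes moved little after zeocin or had wide spreads. GSTF2 stood at 298, 365, 382, 372 and 625 CPM in mock and at 374, 699, 754, 488 and 762 CPM after zeocin (0.59 ± 0.24, adjusted p = 0.0890). Mock replicate 5 was high, and without it the value was 0.80 (adjusted p = 0.0123). GSTF2 also passed without zeocin replicate 1 (0.73, adjusted p = 0.0215) and by DESeq2's Wald test (adjusted p = 0.0234). GSTF9 stood at 362, 377, 447, 429 and 497 CPM in mock and at 362, 438, 482, 440 and 441 CPM after zeocin, a difference of 0.03 ± 0.11. GSTF10 stood at 227, 237, 306, 297 and 293 CPM and then at 288, 335, 361, 324 and 302 CPM (0.24 ± 0.11, adjusted p = 0.104). The groups of GSTF9 and GSTF10 overlapped, and so did those of GSTF4 (0.38 ± 0.21) and GSTF13 (-0.31 ± 0.24), which did not pass either. GSTF12, which carries anthocyanins towards the vacuole, had 33 reads in all mock and 64 in all zeocin libraries and was not tested.

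After UV-C nearly every measured gene of the family changed, most of them upward. Of 31 genes tested alone 25 rose, 4 fell and 2 did not pass the test, where over all 19587 loci 64.4% were called, 33.6% as rises and 30.9% as falls. By at least 1 on the log2 scale 19 of the 31 rose, beside 18.2% of all loci, and 1 fell, beside 10.1%. In the tau class 17 of 21 rose and 3 fell (median 1.51), and in the phi class 8 of 10 rose and 1 fell (median 1.23), while the median over all loci was 0.004. In 25 genes every UV-C library lay above every mock library and in 4 below. With 3 against 3 libraries such separation is easily reached, and its share over all loci is not given here. These counts therefore describe single genes and no trait of the family. The summed level of tau genes went from 433 to 483 CPM in mock libraries to 1103 to 1264 CPM, and that of phi genes from 862 to 994 CPM to 3141 to 3458 CPM. With no correction for length, the phi locus with most counts was that of GSTF9 in mock (45.8% of the phi CPM) and that of GSTF2 after UV-C (32.3%).

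The largest rises after UV-C were those of GSTU3, GSTU4, GSTU12 and GSTU11, each with few reads in mock. At so few reads the SE printed for them understate the counting error. GSTU3, GSTU4, GSTU12 and GSTU11, and GSTU10 given below, passed the filter on low counts through their UV-C libraries. Genes as scarce in mock that did not rise were therefore not tested beside them. GSTU3 had 0.026, 0 and 0 CPM in mock libraries 1 to 3, which is 1 read in all, and 17.4, 15.1 and 14.3 CPM after UV-C. The ratio of pooled counts, scaled for library size, was 1697, with an exact 95% interval of 304 to 67070 that covers counting error only (fitted log2 fold change 10.21 ± 0.30, which depends on the prior count, adjusted p = 1.83e-09). GSTU4 (AT2G29460), the next gene along, had 0.416, 0.201 and 0.363 CPM in mock and 142, 126 and 118 CPM after UV-C (8.59 ± 0.17, adjusted p = 2.13e-10). It rested on 36 mock reads, and its UV-C libraries were alike. GSTU12 had 0.104, 0.0575 and 0.0279 CPM in mock, 7 reads in all, and 17.8, 17.9 and 26.1 CPM after UV-C (8.24 ± 0.31, adjusted p = 2.65e-08). Its neighbour GSTU11 (AT1G69930) had 0.13, 0.144 and 0.0558 CPM and then 25.3, 19.7 and 17.6 CPM (7.52 ± 0.26, adjusted p = 6.99e-09).

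GSTU25 had 1.72, 0.777 and 2.18 CPM in mock and 124, 111 and 179 CPM after UV-C (6.46 ± 0.34, adjusted p = 3.02e-06), and GSTU24 had 5.05, 1.99 and 5.52 CPM and then 92.1, 76.4 and 104 CPM (4.43 ± 0.33, adjusted p = 1.80e-05). In each of the pair mock replicate 2 was the lowest library. GSTU10 had 0.676, 0.288 and 0.614 CPM in mock and 16.7, 21.9 and 21.4 CPM after UV-C (5.23 ± 0.22, adjusted p = 4.44e-08). GSTU9 (AT5G62480) had 2.5, 1.04 and 1.73 CPM in mock and 46.1, 63.7 and 65.3 CPM after UV-C (5.04 ± 0.28, adjusted p = 3.62e-06). None of these groups overlapped. The shared locus of GSTU1 and GSTU2 rose by 2.61 ± 0.11.

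Further tau rises after UV-C were those of GSTU6 (3.75 ± 0.21), GSTU17 (2.18 ± 0.10), GSTU22 (1.51 ± 0.31), GSTU13 (1.47 ± 0.07), GSTU8 (1.20 ± 0.24), GSTU7 (1.04 ± 0.15), GSTU5 (0.57 ± 0.08) and GSTU16 (0.52 ± 0.10). GSTU17, also named ERD9 for its early response to drying, went from 4.95 to 6.05 CPM in mock to 23.6 to 25.5 CPM. GSTU19, first among tau genes per kb in mock, stood at 208, 203 and 211 CPM in mock and at 404, 322 and 329 CPM after UV-C (0.76 ± 0.09, adjusted p = 4.26e-05). It took 45.5% of the tau CPM, not corrected for length, in mock and 29.4% after UV-C. GSTU26 fell by 1.40 ± 0.18 on the log2 scale (from 4.03 to 4.8 CPM in mock to 1.43 to 2.07), GSTU27 by 0.97 ± 0.10 and GSTU20 by 0.74 ± 0.22. The fall of GSTU20 (adjusted p = 0.0196) was lost without mock replicate 2 or 3 or UV-C replicate 3 (0.0548 to 0.0820), and its groups overlapped. GSTU18 had -0.18 ± 0.08 and did not pass the test (adjusted p = 0.0715). With upper quartile factors it had -0.29 and passed (adjusted p = 0.00964).

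**Figure D2:**
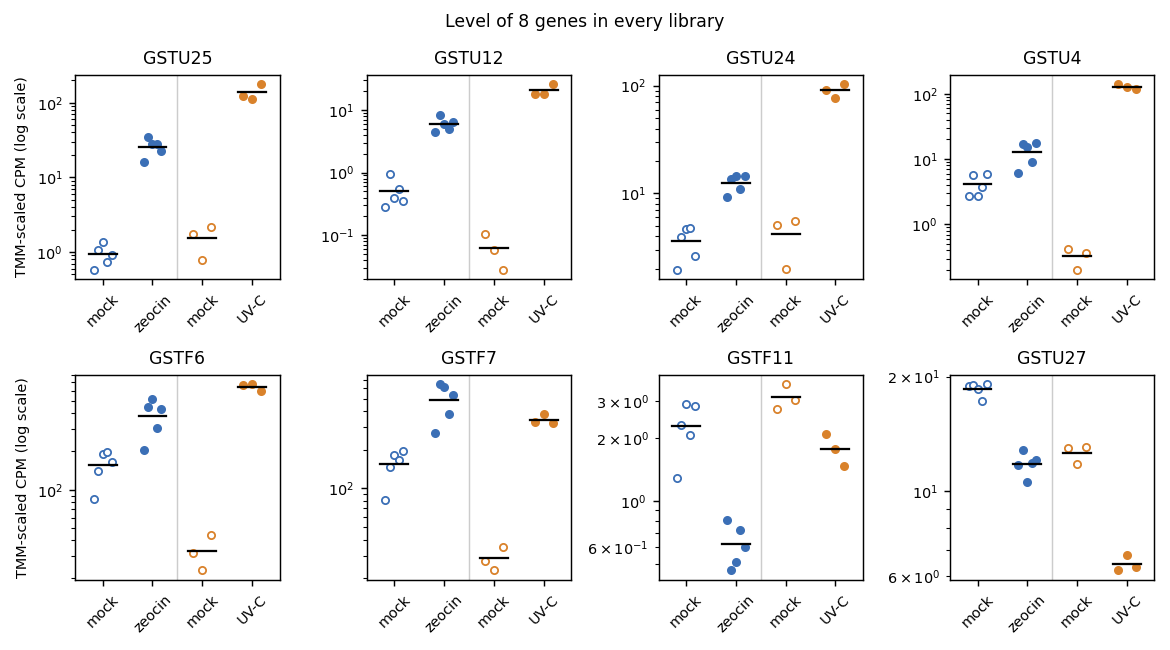
TMM-scaled CPM (log axis) of 8 genes in each library, mock open and treated filled, with zeocin libraries in blue (n = 5 a group) and UV-C libraries in orange (n = 3 a group). Black lines are group means, and the experiments were counted separately. The groups are apart in all 8 genes in both experiments, upward in GSTU25, GSTU12, GSTU24, GSTU4, GSTF6 and GSTF7 and downward in GSTF11 and GSTU27.

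Most measured phi genes rose after UV-C, GSTF6 and GSTF7 the most. GSTF6 went from 34.99 ± 11.2 to 689 ± 45.9 CPM per kb (4.30 ± 0.24, adjusted p = 3.82e-06), GSTF7 from 31.1 ± 6.76 to 373 ± 32.5 (3.58 ± 0.16) and GSTF2 from 136 ± 17.2 to 1055 ± 77.4 (2.95 ± 0.11). After UV-C GSTF2 and GSTF6 stood first and second of the family per kb, ahead of GSTF9, which had led in mock. GSTF9 was at 397, 435 and 432 CPM in mock and at 616, 550 and 499 CPM after UV-C (0.40 ± 0.09, adjusted p = 0.00252). GSTF10 was at 188, 157 and 175 CPM and then at 478, 479 and 483 CPM (1.47 ± 0.08, adjusted p = 1.11e-07). Neither pair of groups overlapped. GSTF3 (2.76 ± 0.25), GSTF4 (1.0 ± 0.21) and GSTF8 (0.99 ± 0.16), here held alone, rose as well. The locus of GSTF8 covered 42.5% of the gene. GSTF11 fell by 0.81 ± 0.19 on the log2 scale, from 2.73 to 3.6 CPM in mock to 1.46 to 2.08. GSTF14 had -1.0 ± 0.41 and did not pass (adjusted p = 0.0687), except without mock replicate 2, its lowest mock library (-1.31, adjusted p = 0.0130). GSTF12, GSTU21 and GSTU23 had 24, 7 and 26 reads in all mock and 7, 7 and 19 in all UV-C libraries, and were not tested.

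**Figure D3:**
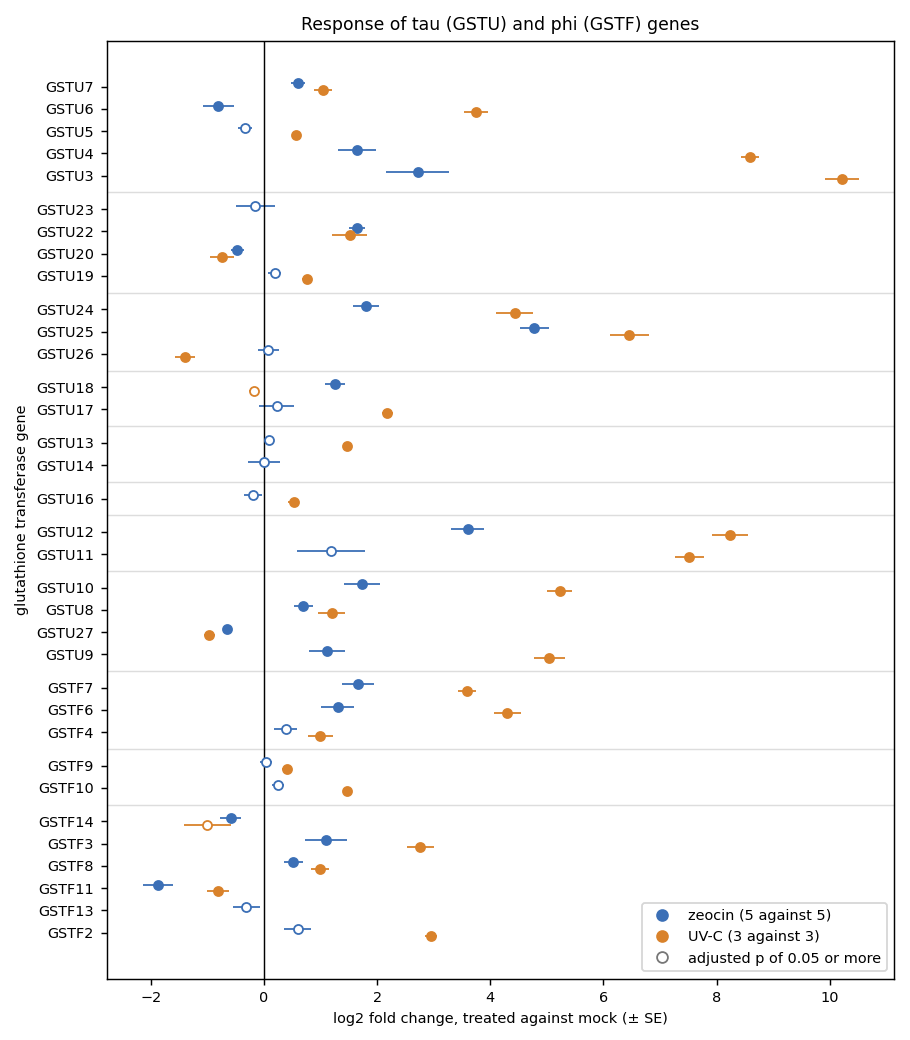
Log2 fold change (treated against mock, ± SE) of each gene with a locus after zeocin (blue, 5 against 5 libraries) and UV-C (orange, 3 against 3), with tau genes above phi genes and grey lines between tandem arrays. Open points did not pass the test, the last block of each class holds genes outside arrays, the locus shared by GSTU1 and GSTU2 is not drawn, and GSTF8 after zeocin is the locus it shares. SE bars of genes with few mock reads understate the counting error. Of 30 genes tested in both, the orange point lies to the right of the blue one in 24 and to the left in GSTU18, GSTU20, GSTU22, GSTU26, GSTU27 and GSTF14.

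The responses were then set against each other in a joint fit of 32 genes held alone in both tables. The change was higher after UV-C in 20 genes and lower in 3, and in 9 the difference did not pass the test, where over all 17182 genes tested 23.4% were higher and 23.8% lower (47.2% in either direction). The treatments differed in agent, dose and time, and each experiment had mock libraries of its own, so the difference is one between these experiments. In their separate fits 13 genes rose in each experiment, 3 fell in each (GSTU20, GSTU27 and GSTF11) and 10 rose after UV-C without passing after zeocin. For 10 of the 13 that rose in each the difference passed. GSTU4 differed by 6.92 ± 0.59 on the log2 scale (adjusted p = 4.51e-07), GSTU12 by 4.63 ± 0.61 and GSTU25, with the largest zeocin rise, by 1.65 ± 0.46 (adjusted p = 0.00808). For GSTU22 the difference was -0.16 ± 0.30, for GSTU7 0.41 ± 0.20 and for GSTU8 0.47 ± 0.29, and these did not pass. GSTU7 passed without UV-C replicate 2 (0.56, adjusted p = 0.0224).

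Of the called differences towards lower values after UV-C, those of GSTU18 and GSTU26 were the largest. GSTU18 rose after zeocin and had -0.18 after UV-C, a difference of -1.48 ± 0.25 (adjusted p = 1.19e-04), and GSTU26 had 0.08 after zeocin and fell after UV-C, a difference of -1.51 ± 0.26 (adjusted p = 1.74e-04). The third lower gene, GSTU27, differed by -0.35 ± 0.12, and that call was lost without UV-C mock replicate 1 or 3 or UV-C replicate 1 or 3 (adjusted p = 0.0523 to 0.0573). GSTU6 was called as a fall after zeocin and a rise after UV-C, with a difference of 4.52 ± 0.46 (adjusted p = 7.18e-07), although its fall after zeocin hung on single libraries as given above. GSTF11 fell in each experiment, and by less after UV-C (difference 1.03 ± 0.37, adjusted p = 0.0276), a call lost without UV-C mock replicate 1 or 3 or UV-C replicate 1 or 2 (0.0514 to 0.0797). The difference of GSTF3 (1.63 ± 0.58, adjusted p = 0.0298) was lost without UV-C mock replicate 1 or UV-C replicate 1 or 2 (0.0502 to 0.0926), and that of GSTU19 (0.54 ± 0.18, adjusted p = 0.0223) without UV-C replicate 1 (0.0806).

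Within tandem arrays some neighbours were called in the same direction and others were not, and likeness between neighbours was not tested. With gaps of at most 20000 bases, 29 of the 41 genes lay in 9 tandem arrays and 12 stood alone. The array of 7 on chromosome 2 (TAIR10.1 12617936 to 12632538, minus strand) holds GSTU7, GSTU6, GSTU5, GSTU4, GSTU3, GSTU2 and GSTU1 in that order along the chromosome. All its loci rose after UV-C, from 0.57 (GSTU5) to 10.21 (GSTU3) on the log2 scale. After zeocin its GSTU3, GSTU4 and GSTU7 and the locus of GSTU1 with GSTU2 rose, GSTU6 fell and GSTU5 did not pass. In the array of 5 on chromosome 1 (29467412 to 29488007, minus strand) GSTU22 rose and GSTU20 fell in each experiment, and GSTU19 rose after UV-C.

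The array of GSTU24, GSTU25 and GSTU26 (chromosome 1, 5869543 to 5876620, plus strand) held the gene with the largest zeocin rise next to one that fell after UV-C. The pair GSTU18 and GSTU17 (chromosome 1, 3395551 to 3398358, minus strand) was called in different experiments: GSTU18 rose after zeocin and GSTU17 after UV-C. The difference between the experiments was -1.48 ± 0.25 for GSTU18 and 1.93 ± 0.43 for GSTU17 (adjusted p = 0.00192). Their order in mock also differed. GSTU17 was above GSTU18 in zeocin mock libraries (means of 23.4 and 5.82 CPM) and below it in UV-C mock libraries (5.38 and 15.5 CPM). The part of these mock levels in the calls was not tested. The phi array of GSTF7, GSTF6, GSTF5 and GSTF4 (chromosome 1, 658578 to 666471, minus strand) rose in its measured members after UV-C. In the coding sequence the most alike pairs were GSTF2 with GSTF3 (94.5% of aligned bases) and GSTF6 with GSTF7 (94.3%), followed by GSTU1 with GSTU2 (85.5%), the most alike of the tau class. GSTU24 and GSTU25 shared 79.4%. The median over pairs was 55.1% among 378 tau pairs and 52.7% among 78 phi pairs. Windows of 50 bases that occur elsewhere in the genome made up 10.3% of the exonic sequence of GSTF6, 10.04% of GSTF7 and 1.67% of GSTU8 and were not found in any other member. Reads that map to several places were not counted, so the values of GSTF6 and GSTF7 rest on their unshared parts and are less certain. Only exact matches were counted, so reads placed on the wrong copy with mismatches were not assessed. GSTF3 had means of 0.789 and 5.34 CPM in UV-C mock and treated libraries, beside 140 and 1080 CPM of GSTF2. Whether reads of GSTF2 were placed on GSTF3 was not tested.

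GSTF5, which had no locus on its own strand, lay opposite an unannotated locus in the UV-C table. This locus (chromosome 1, 662973 to 664246, plus strand, 1 exon) had 0, 0 and 1 read in the mock libraries and 35, 34 and 29 after UV-C. The ratio of pooled counts, scaled for library size, was 132, with an exact 95% interval of 23.1 to 5249 for counting error only. With 1 mock read the locus was assembled and counted through its UV-C libraries. Loci as scarce in mock that did not rise were not seen beside it, so the direction was set by how it was found. The counts were made with strand, on libraries of a kit that marks it.

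Genes around the transferases were counted in lists of their pathway. Over all loci 15.0% rose and 12.0% fell after zeocin and 33.6% rose and 30.9% fell after UV-C, and lists of this size whose shares lie near these, as that of glutathione genes after UV-C does, show nothing of their own. Of 10 tested genes for making, reducing and breaking down glutathione 4 rose and none fell after zeocin (median 0.13), and of 9 after UV-C 4 rose and 3 fell (median -0.03). GGT1, which cleaves glutathione outside the cell, rose by 1.02 ± 0.17 and 2.24 ± 0.08. GSH2, glutathione synthetase, rose by 0.41 ± 0.10 and 1.07 ± 0.07, GGT4, which trims conjugates in the vacuole, by 0.40 ± 0.09 and 1.08 ± 0.08, and GSH1, which makes the first bond of glutathione, by 0.67 ± 0.08 after UV-C. GGCT2;1 and GGCT2;2, which break glutathione down in the cytosol, had -0.71 ± 0.26 and -0.36 ± 0.10 after UV-C. In the other transferase classes 4 of 11 rose and none fell after zeocin (median 0.12), and 2 of 10 rose and 4 fell after UV-C (median -0.20). GSTL1 of the lambda class rose in each (1.60 ± 0.25 and 4.53 ± 0.19), TCHQD rose after zeocin (0.69 ± 0.12) and GSTZ1, of tyrosine breakdown, after UV-C (1.41 ± 0.12), while GSTL3 (-0.55 ± 0.08) and GSTT1 (-0.49 ± 0.08) fell after UV-C.

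Vacuolar ABCC pumps, which take up glutathione conjugates, rose in 1 of 4 cases after zeocin (ABCC2, 0.46 ± 0.10). ABCC3 had a larger change there (1.31 ± 0.56) and did not pass (adjusted p = 0.122), though every zeocin library lay above every mock library. After UV-C 4 of 4 rose, among them ABCC3 (4.61 ± 0.13) and ABCC4 (1.79 ± 0.13). Of 17 tested genes of other xenobiotic detoxification steps 5 were higher after zeocin and none lower (median 0.22), and of 18 after UV-C 14 rose and 3 fell (median 3.63). In DTX3 and in UGT74E2 (0.545, 45.3, 31, 19.4 and 3.09 CPM in mock replicates 1 to 5) the zeocin mock libraries were split as given above, and neither passed after zeocin. The glucosyltransferases UGT73B4 (4.16 ± 0.42) and UGT73B5 (1.98 ± 0.18) led after zeocin. After UV-C the efflux carriers DTX4 and DTX3 of the MATE family led with 10.97 ± 0.28 and 10.34 ± 0.14, on 4 and 10 mock reads. These SE understate the counting error at that depth. The reductase gene AER (-0.77 ± 0.09) and CYP89A9 (-0.59 ± 0.15) fell after UV-C. Among TGA, GRAS and NAC regulators 4 of 14 rose and 1 fell after zeocin, and 8 of 13 rose and 2 fell after UV-C. The bZIP factor TGA7 (0.84 ± 0.13) and the NAC factor ATAF2 (0.77 ± 0.14) rose and TGA1 (-0.96 ± 0.08) fell after zeocin. After UV-C NAC013 (4.66 ± 0.13), of mitochondrial stress, and ATAF2 (3.10 ± 0.12) rose, and TGA2 (-0.53 ± 0.11) and TGA4 (-0.34 ± 0.10) fell.

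Of 7 camalexin genes, the pathway of GSTF6, 4 rose and 1 fell after zeocin (median 1.12), and 7 rose after UV-C (median 4.68). PAD3, the last enzyme, rose by 2.5 ± 0.56 and 8.80 ± 0.25, the regulator WRKY33 by 1.75 ± 0.24 after zeocin and CYP71A13 by 10.40 ± 0.42 after UV-C, on 7 mock reads. CYP79B3, shared with indole glucosinolates, fell by 1.04 ± 0.13 on the log2 scale after zeocin. Of 17 glucosinolate genes 4 rose and 10 fell after zeocin (median -0.72), and of 18 after UV-C 10 rose and 1 fell (median 0.86). The regulator MYB51 (1.60 ± 0.18) and CYP83B1 (0.67 ± 0.13), of the indole branch, rose after zeocin, whereas the indole regulator MYB34 (-1.12 ± 0.11) and CYP79B3 fell. After UV-C CYP79B2 (4.68 ± 0.10) and the sulfotransferase SOT16 (2.96 ± 0.08) rose and MAM1 (-0.75 ± 0.17), which lengthens aliphatic side chains, fell. GSTF11 and GSTU20, placed with this pathway, fell in each experiment, and GSTF9 and GSTF10 rose after UV-C. Of the anthocyanin genes that GSTF12 serves, 1 of 6 rose after zeocin (UGT78D2, 0.36 ± 0.12) and 4 of 5 after UV-C (UGT78D2, 1.52 ± 0.16, and F3H, 1.21 ± 0.28).

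**Figure D4:**
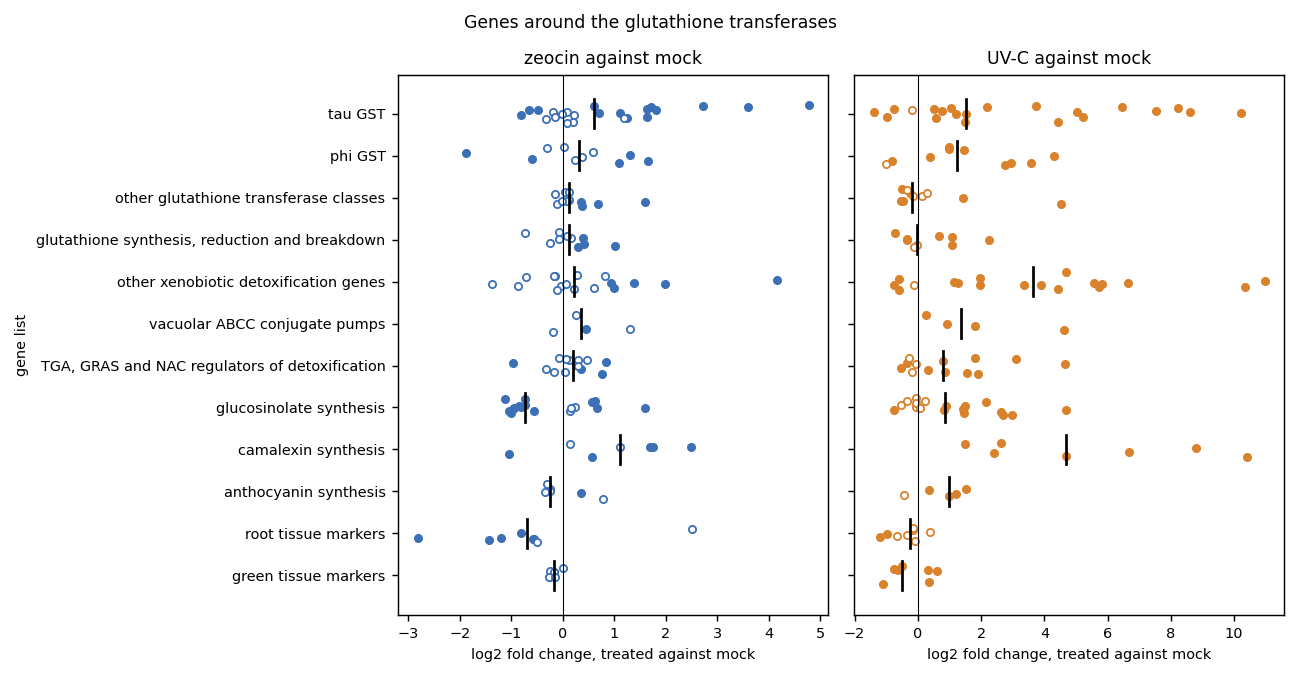
Log2 fold change of each tested gene (points, filled where the adjusted p was below 0.05) of the tau and phi classes held alone and of the lists around them, after zeocin (left) and UV-C (right), with black lines at the medians. The horizontal scales differ between the panels. The detoxification and camalexin medians after UV-C (3.63 and 4.68) lie above the tau median of 1.51, and glucosinolate genes lie mostly left of 0 after zeocin.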

How the data were processed

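RNA of whole seedlings was sequenced in 16 libraries. Per the labels' protocols, ribosomal RNA was removed and strand-marking libraries were made with a directional kit. The authors deposited, for each experiment, a table of unnormalized fragment counts over the loci assembled from its reads. Per the submitters' processing notes, Trim Galore 0.11.8, STAR 2.7.1a, StringTie 2.1.5 and featureCounts (Subread 2.0.1) were used on TAIR10. Per the file headers, each experiment was assembled alone, with a minimum coverage of 10 for zeocin and 1 for UV-C (2 for single-exon transcripts), and counted on the stranded exons without reads that map to several places or loci. The counting options on mates differed between the experiments, so levels are set side by side only within a table.

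Each locus was given the TAIR10 genes on its strand whose exonic overlap was at least 50% of gene or locus, and a gene took the locus of longest overlap. Tests were edgeR 4.0.16 quasi-likelihood fits of the deposited counts (R 4.3.3, TMM factors, default filter on low counts, robust, two-sided) of each table alone and, for the difference of the responses, of both, with Benjamini-Hochberg adjustment over all loci or genes tested and a threshold of 0.05. The fits were tested on simulated data. CPM are library-scaled counts, errors are SE of log2 fold changes or SD of levels, and intervals cover counting error only. Each SE was the absolute log2 fold change divided by the square root of the test's F statistic. The fold changes include a prior count, so at few mock reads these SE understate even the counting error. Alternatives were other scaling factors, DESeq2 1.42.0, no filter, nuclear loci only, an overlap of 80% of the gene, a replicate block and leaving out each library.

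The members and lists were chosen with earlier results of these data known. By the rule for naming, values in every library are given for up to 8 genes with the largest called change in each comparison and the 3 of highest mock level, and 4 genes at most for each list. Proteins, which the plan named, were not used here. Identity was computed on coding bases of the longest coding transcript instead (Biopython 1.88). Nothing in the labels says that replicates came from separate cultures, so the spread behind each p-value is that among these samples and may be technical. No 2 libraries of a group agreed within sampling noise (chi-square per degree of freedom 9.66 to 84.1).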

Additional observations from a re-analysis of the deposited data

Results flagged for a closer look

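In the zeocin mock group 4 values of single genes, all in replicates 4 and 5, stood apart from the rest of their group by Dixon's test, of 72 groups of 5 examined, where chance flags about 1 in 20. They were GSTU13 at 57.1 CPM (group median 67.7), GSTU26 at 1.27 CPM (median 2.05) and GSTF12 at 0.0236 CPM (median 0.201) in replicate 4, and GSTF2 at 625 CPM (median 372) in replicate 5.

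The change after UV-C differed from that after zeocin by the interaction test in 23 genes. Higher after UV-C, as differences on the log2 scale, were GSTU3 (7.63), GSTU4 (6.92), GSTU11 (6.32), GSTU12 (4.63), GSTU6 (4.52), GSTU9 (3.90), GSTU10 (3.48), GSTF6 (2.97), GSTU24 (2.60), GSTF2 (2.33), GSTU17 (1.93), GSTF7 (1.89), GSTU25 (1.65), GSTF3 (1.63), GSTU13 (1.35), GSTF10 (1.19), GSTF11 (1.03), GSTU5 (0.87), GSTU16 (0.68) and GSTU19 (0.54). Lower were GSTU26 (-1.51), GSTU18 (-1.48) and GSTU27 (-0.35).

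Outside the annotated genes, the unannotated locus opposite GSTF5 held 98 reads over the 3 UV-C libraries against 1 over the 3 mock libraries. It was found through the UV-C libraries, as given above.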

How the results depend on the processing

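Directions and calls of the counts held within 1.5 times under upper quartile and RLE factors, DESeq2's Wald test (not run for the difference of the responses), no filter and nuclear loci only (the latter also not run for the difference). With an overlap of 80% of the gene, fewer genes could be tested: 10 of 18 were called after zeocin (8 rose, 2 fell) and 11 of 16 differed between the experiments (9 higher after UV-C). Without 1 library, 15 to 19 genes were called after zeocin (12 to 14 rose, 3 to 6 fell), 28 to 29 after UV-C (25 rose in each, 3 to 4 fell), and 19 to 23 differed (17 to 20 higher, 2 to 3 lower). Replicate numbers did not pair samples throughout. Correlations of deviations of same-numbered libraries ran from -0.10 to 0.43 for zeocin and from -0.30 to 0.16 for UV-C. Those of zeocin replicates 1 (0.43) and 3 (0.25) were the highest of all mock with zeocin pairs. With the replicate block 20 genes were called after zeocin (15 rose, 5 fell), 30 after UV-C and 21 differed. Upper quartile factors shifted the median of all loci by -0.06 after zeocin and -0.11 after UV-C.

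Signs turned only in genes that were not called. After zeocin GSTF9 had -0.024 with upper quartile factors and -0.016 to 0.107 without 1 library, and GSTU14 had 0.019 with the block and -0.14 to 0.187 without 1 library. GSTU23 had -0.27 to 0.0519 and GSTU26 -0.0376 to 0.126 without 1 library. In the difference of the responses GSTU22 had -0.426 to 0.00948 and GSTU23 -0.125 to 0.436 without 1 library. Over all alternatives 15 of the 19 zeocin calls, 28 of the 29 UV-C calls and 19 of the 23 differences were kept in every alternative in which the gene was tested. Genes with fewer than 10 mock reads, such as GSTU3 and GSTU12 in the UV-C table, have rises whose size is known only roughly, given the counting error at that depth.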
